A study of Mus musculus with 5 samples.

Results

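Chromatin remodellers, the proteins that read histone and DNA marks, and the chaperones that carry histones were followed through the opening hours of neural differentiation in C17.2 cells, an established mouse neural stem cell line of CD1 x C57BL/6 strain. The members are the genes whose symbol begins with one of a fixed set of family names (Smarc, Chd, Arid, Baz, Pbrm1, Rsf1, Brd, Bptf, Ino80, Actl6, Ing, Phf, Cbx, Pcgf, Mbd, Mta, Anp32, Nap1l, Asf1, Chaf1, Ssrp1, Supt16, Atrx and the Hmga, Hmgb and Hmgn families). The rule found 96 of 8034 gene symbols, at 712 of 34714 listed start sites. It uses names only, and it also took in Phf2os1, a non-coding RNA gene antisense to Phf2, and Smarca5-ps, a pseudogene of Smarca5 whose reads may not be told apart from those of its parent.

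Nuclei were profiled by ATAC-seq, which finds open DNA through the insertions of a transposase, at 0, 0.5, 1, 1.5 and 2 h after induction, when the cells left serum-containing medium for a serum-free one that carries N2. All 5 groups are the same line. The 0 h library is labelled the control, and the later ones are labelled post-induction of differentiation. The 0 h library therefore differs from the others in induction as well as time. Each time is 1 library, so no difference below has a replicate check and no test between times was possible. The value of a site is a whole number between 0 and 10, taken here as the count of intervals in a library's BED file that lie over it, and called entries. A site with 1 or more entries is called covered. A site with 0 entries was not called, which does not show closed chromatin. Of 8 neural stem cell marker genes, 6 were among the listed sites, and 2 of these, Hes1 and Cdh2, were covered at 0 h.

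Remodellers use ATP to slide, evict or exchange nucleosomes, and fall into the SWI/SNF, ISWI, CHD and INO80 families by their ATPase. Bromodomains bind acetylated histones, PHD fingers and chromodomains bind methylated or unmodified histone tails, and chaperones hand histones to DNA behind replication forks and polymerases. In neural progenitors, subunits of SWI/SNF are exchanged as neurons form, and CHD proteins are known from neurodevelopmental disorders.

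The 6 promoters printed here span the range of behaviour described below. The site of Chd4 was covered until 1.5 h and not at 2 h, that of Baz2a was uncovered at 1 h, that of Phf12 was uncovered at 0 h, that of Mbd6 was covered at 1.5 h, that of Smarcd1 held the same value in every library, and that of Phf24 was covered in none. Each is the RefSeq window of 250 bases before to 50 after a gene start (GRCm38.p6), read 5′ to 3′ on the gene's strand, and capitals mark the bases of the deposited site.
Chd4 promoter, chr6:125095731-125096030, plus strand: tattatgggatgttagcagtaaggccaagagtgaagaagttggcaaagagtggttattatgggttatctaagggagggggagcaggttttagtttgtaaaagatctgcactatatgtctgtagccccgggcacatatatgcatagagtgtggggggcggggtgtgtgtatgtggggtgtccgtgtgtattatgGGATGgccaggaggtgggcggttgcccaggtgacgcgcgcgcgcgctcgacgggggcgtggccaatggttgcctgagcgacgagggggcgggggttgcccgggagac
Baz2a promoter, chr10:128092533-128092832, plus strand: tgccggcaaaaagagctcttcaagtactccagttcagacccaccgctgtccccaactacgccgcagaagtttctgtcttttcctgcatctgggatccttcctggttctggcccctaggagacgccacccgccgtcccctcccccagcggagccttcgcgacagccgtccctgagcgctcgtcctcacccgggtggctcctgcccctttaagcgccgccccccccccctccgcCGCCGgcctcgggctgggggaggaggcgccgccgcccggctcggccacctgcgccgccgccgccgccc
Phf12 promoter, chr11:77982566-77982865, plus strand: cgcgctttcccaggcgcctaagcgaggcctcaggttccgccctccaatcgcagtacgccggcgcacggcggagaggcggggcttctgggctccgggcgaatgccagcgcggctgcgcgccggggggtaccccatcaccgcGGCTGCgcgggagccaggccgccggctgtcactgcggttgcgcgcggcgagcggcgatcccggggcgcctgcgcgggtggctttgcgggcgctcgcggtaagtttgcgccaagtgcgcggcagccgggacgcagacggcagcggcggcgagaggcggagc
Mbd6 promoter, chr10:127288832-127289131, minus strand: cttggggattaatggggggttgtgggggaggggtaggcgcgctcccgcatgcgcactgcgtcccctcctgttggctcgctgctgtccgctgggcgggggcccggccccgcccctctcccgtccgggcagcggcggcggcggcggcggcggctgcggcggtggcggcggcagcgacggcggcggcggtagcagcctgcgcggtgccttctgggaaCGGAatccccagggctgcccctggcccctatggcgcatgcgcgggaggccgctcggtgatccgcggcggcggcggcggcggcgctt
Smarcd1 promoter, chr15:99702037-99702336, plus strand: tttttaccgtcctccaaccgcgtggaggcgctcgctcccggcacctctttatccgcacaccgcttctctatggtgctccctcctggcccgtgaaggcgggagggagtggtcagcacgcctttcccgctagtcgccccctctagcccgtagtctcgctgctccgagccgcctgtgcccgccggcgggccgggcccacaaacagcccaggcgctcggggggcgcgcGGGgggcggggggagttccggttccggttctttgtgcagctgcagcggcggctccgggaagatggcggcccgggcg
Phf24 promoter, chr4:42916993-42917292, plus strand: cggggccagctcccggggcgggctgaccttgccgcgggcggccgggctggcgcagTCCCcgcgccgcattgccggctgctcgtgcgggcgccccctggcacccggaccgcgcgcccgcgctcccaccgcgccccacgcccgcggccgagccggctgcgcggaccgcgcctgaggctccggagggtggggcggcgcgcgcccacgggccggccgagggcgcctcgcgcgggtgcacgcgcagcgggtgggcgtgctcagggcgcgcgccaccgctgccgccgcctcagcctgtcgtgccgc
A RefSeq promoter was found for 74 of the 96 genes. These promoters were rich in CpG, with an observed over expected CpG ratio of 0.6 or more in 67 of 74 (90.5%), against 84% of 5917 promoters of genes in the table and 35.8% of all 32851 RefSeq promoters. The GC box GGGCGG, searched like the other motifs on both strands, lay in 64 of the 74 (86.5%), against 74.8% of the promoters of table genes and 35.7% of all promoters. The letters CCAAT lay in 29 (39.2%, against 34.1% and 37.4%), the E-box CACGTG in 11 (14.9%, against 10.5% and 7.15%), CCGGAAG in 8 (10.8%, against 14.8% and 8.86%) and TATAAA in 4 (5.41%, against 6.81% and 13.6%). TGACGTCA was found in 3 (4.05%, against 3.14% and 1.79%), namely Baz2b, Cbx8 and Ing3, TGANTCA in 2 (2.7%, against 3.85% and 7.81%), namely Smarca2 and Smarcb1, and the palindromic NRF1 consensus in 1 (1.35%, against 2.21% and 0.971%), the promoter of Mbd6 shown above. None of these motifs contains another, and a match describes letters and not a bound site.

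A gene was represented by the site whose entries averaged highest across libraries. By that site, 79, 84, 77, 88 and 82 of 96 members were covered in time order. As shares, these were 82.3% (Wilson 95% interval 73.5 to 88.6%), 87.5% (79.4 to 92.7%), 80.2% (71.1 to 86.9%), 91.7% (84.4 to 95.7%) and 85.4% (77 to 91.1%). Over all genes the shares were 72.8%, 76.5%, 72.4%, 79.3% and 78.3%. Both sets were lowest at 1 h and highest at 1.5 h. The intervals cover counting error over genes, not the spread between libraries. Members had more listed sites than other genes, a mean of 7.42 against 4.23 over all genes, which gives a member more chances to hold a covered site. Counted by site the order of the sets was turned: 38.6%, 55.2%, 45.2%, 66.6% and 62.6% of the members' sites were covered at the 5 times, against 47.6%, 58.7%, 51.2%, 66.9% and 65.7% of all sites.

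**Figure D1:**
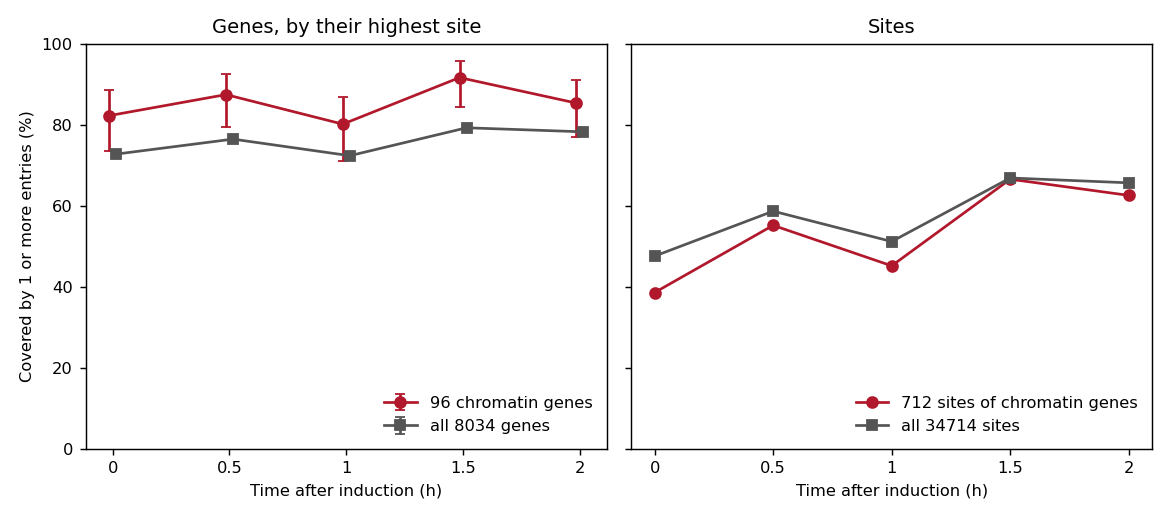
Share covered by 1 or more entries (%) against time after induction (h), for genes by their highest site (left) and for single sites (right); circles are the chromatin genes, squares the whole table, and bars are Wilson 95% intervals over genes. The chromatin genes lie above all genes on the left, and their sites lie at or below all sites on the right.

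Most members were covered throughout. In all 5 libraries 72 of 96 were covered (75%, against 69% of all genes), and 7 were covered in none (7.29%, against 19.2% of all genes). In 50 members, the 7 at 0 among them, the highest and lowest library differed by 1 entry or less (52.1%, against 62.3% of all genes), and in 18 they differed by 3 or more (18.8%, against 15%). Equal values of 1 or more in every library were held by 9 members (9.38%, against 11.1% of all genes). Among these, by their highest site, were Smarcb1, Smarcc1 and Smarcd1 of the SWI/SNF core, the SWI/SNF subunits Arid1a and Arid1b, the methyl-CpG binder Mbd2, and the chaperones Anp32b and Asf1b. Arid1a held 1 throughout at sites 444 to 612 bp upstream of its start, but its sites 83 to 191 bp upstream held 0, 1, 0, 1 and 1. Sites of Arid1b near a start also varied, as given below. Sites of Anp32b 162 and 171 bp inside the gene held 0, 2, 2, 2 and 2. The site of Mbd2 at 373 bp held 0, 1, 0, 1 and 1, and that of Smarcc1 at 432 bp 1, 2, 2, 2 and 2. The listed sites of Smarcb1 and Smarcd1 did not differ.

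**Figure D2:**
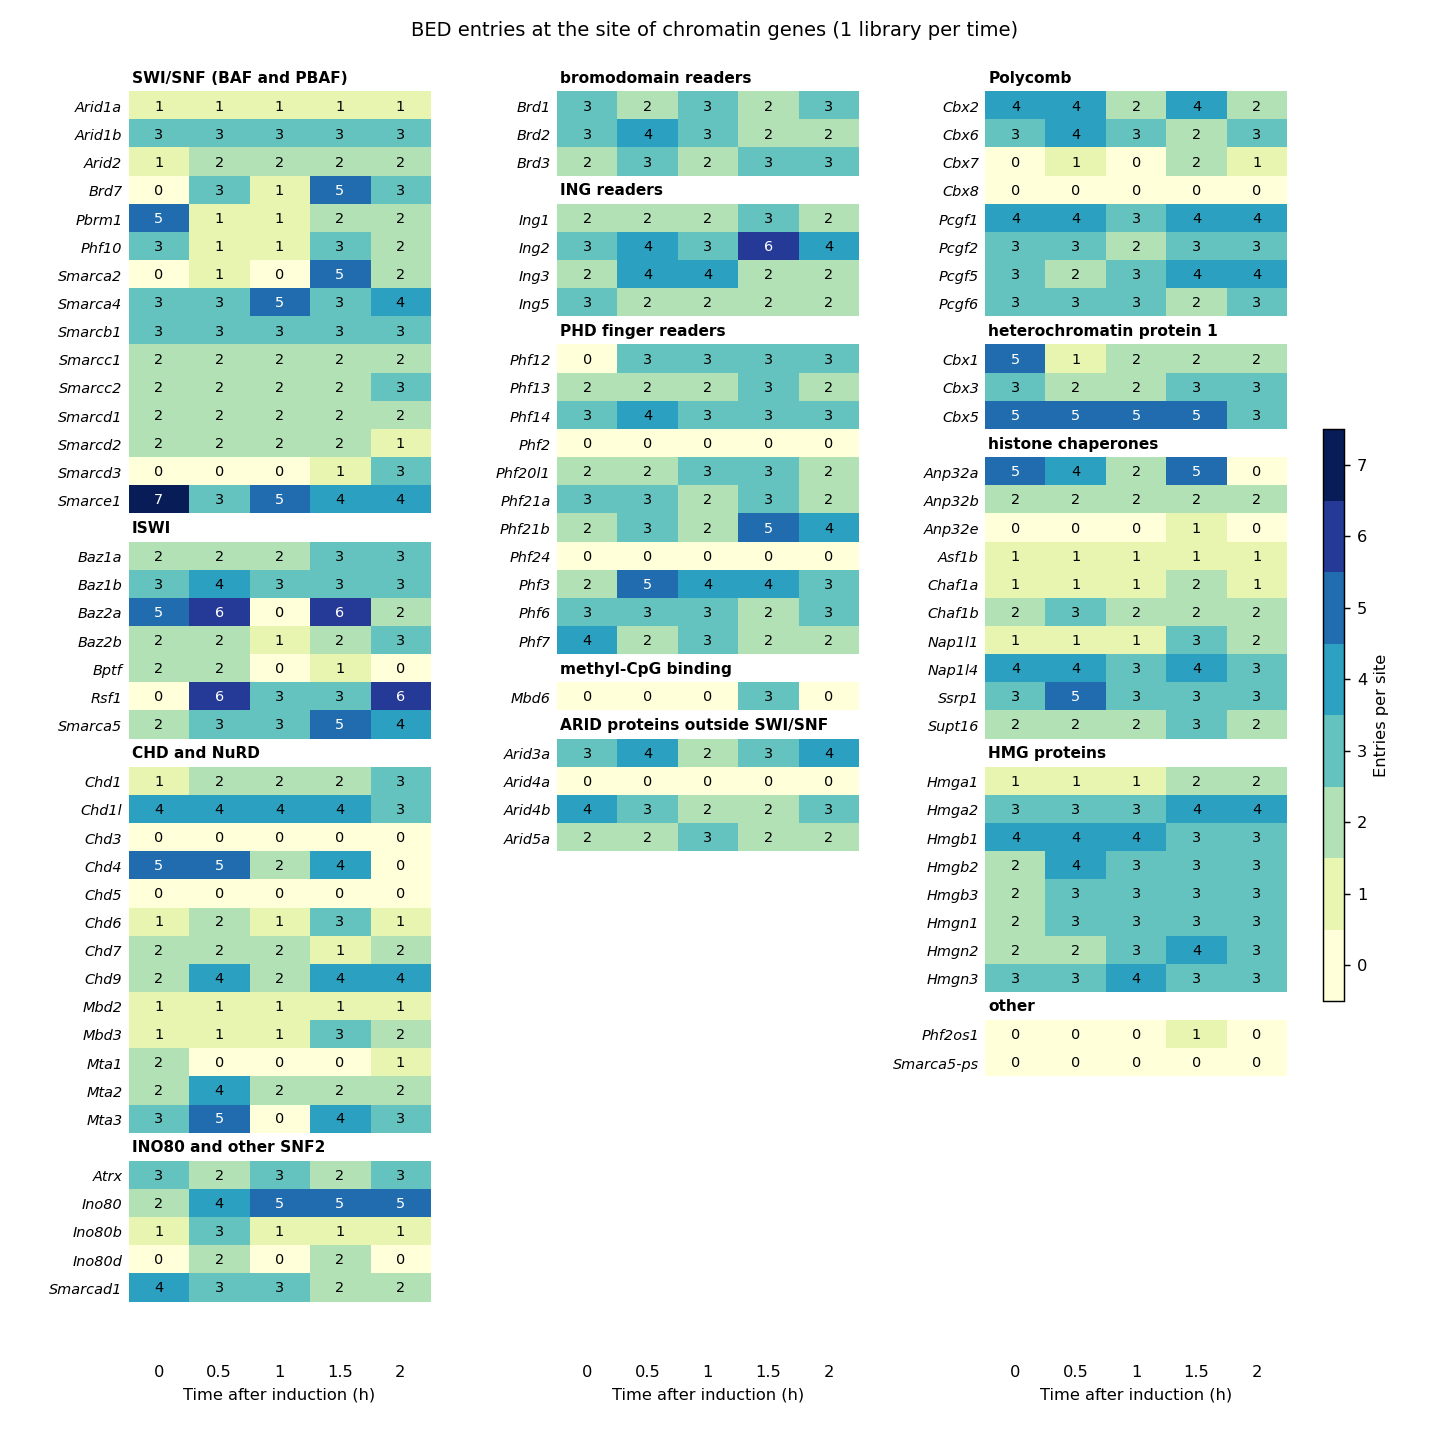
Entries (number and colour) at the site of 94 of the 96 genes, with 1 row per gene grouped by role and 1 column per library in order of time after induction (h). Most rows hold similar values across the 5 libraries, and 7 rows hold 0 throughout.

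Against 0 h, 8 members were at least 2-fold higher at 0.5 h on the log2(entries + 1) scale (8.33%, against 8.05% of all genes) and 5 were at least 2-fold lower (5.21%, against 2.2%). At 1 h, 4 were higher (4.17%, against 4.62%) and 10 lower (10.4%, against 5.04%). At 1.5 h, 16 were higher (16.7%, against 11.2%) and 3 lower (3.12%, against 1.83%). At 2 h, 8 were higher (8.33%, against 9.35%) and 6 lower (6.25%, against 3.47%). The shares of higher members lie near the background at 0.5, 1 and 2 h. The shares of lower members lie above it at all 4 times, which share the 0 h library, and the background lies below their Wilson interval at 0.5 and 1 h alone. At 1.5 h, where the most members were higher, the background of 11.2% lay inside their interval of 10.5 to 25.4%, and with libraries scaled to equal means 7 members were higher (7.29%, against 6.65% of all genes scaled likewise). Over all times, 30 members were at least 2-fold from 0 h in 1 or more libraries (31.2%, against 22.6%). The median log2 ratio was 0.00 at every time, for members and for all genes. With the site nearest the annotated 5′ end in place of the highest site, the higher members numbered 14 at 0.5 h (14.6%, against 9.47% of all genes by that site) and 8 at 1 h (8.33%, against 5.63%). By that site 21 were higher at 1.5 h (21.9%, against 14%) and 14 at 2 h (14.6%, against 12.1%), and 3 were lower at 0.5 h (3.12%, against 2.05%). The mean over all sites gave 8, 5, 21 and 14 higher members in time order (8.33%, 5.21%, 21.9% and 14.6%, against 9.02%, 4.53%, 14.2% and 11.9%). With the mean over all sites, 2, 5, 1 and 3 members were lower at the 4 later times (2.08%, 5.21%, 1.04% and 3.12%, against 1.48%, 3.36%, 1.47% and 2.7% of all genes), so that the share at 1.5 h was then below the background.

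Some of these genes crossed between 0 entries and 1 or more. Gained genes, at 0 entries in the 0 h library, numbered 6 at 0.5 h (6.25%, against 4.73% of all genes), 3 at 1 h (3.12%, against 2.73%), 10 at 1.5 h (10.4%, against 6.98%) and 6 at 2 h (6.25%, against 6.52%). Lost genes numbered 1 at 0.5 h (1.04%, against 1.02%), 5 at 1 h (5.21%, against 3.2%), 1 at 1.5 h (1.04%, against 0.523%) and 3 at 2 h (3.12%, against 1.02%). By the highest site, Brd7, Phf12 and Rsf1 were uncovered in the 0 h library alone (3.12%, against 2.32%). By that site 3 members, Baz2a and Mta3 among them, were uncovered in the 1 h library alone (3.12%, against 1.98%). Anp32a and Chd4 were uncovered by it in the 2 h library alone (2.08%, against 0.236%). Anp32e, Mbd6 and Phf2os1 were covered at 1.5 h and at no other time (3.12%, against 0.834%).

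Set against the library before it, 1.5 h had 18 members at least 2-fold higher than 1 h (18.8%, against 11% of all genes) and 0 lower (against 1.18%). At 2 h, 2 members were higher than at 1.5 h (2.08%, against 1.43%), Mta1 and Smarcd3, and 10 lower (10.4%, against 4.31%). The 10 were Anp32a, Anp32e, Baz2a, Bptf, Chd4, Chd6, Ino80d, Mbd6, Phf2os1 and Smarca2. More entries than at 0 h in each of the 4 later libraries were held by 11 members (11.5%, against 9.48%), and fewer in each by 8 (8.33%, against 6.96%).

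**Figure D3:**
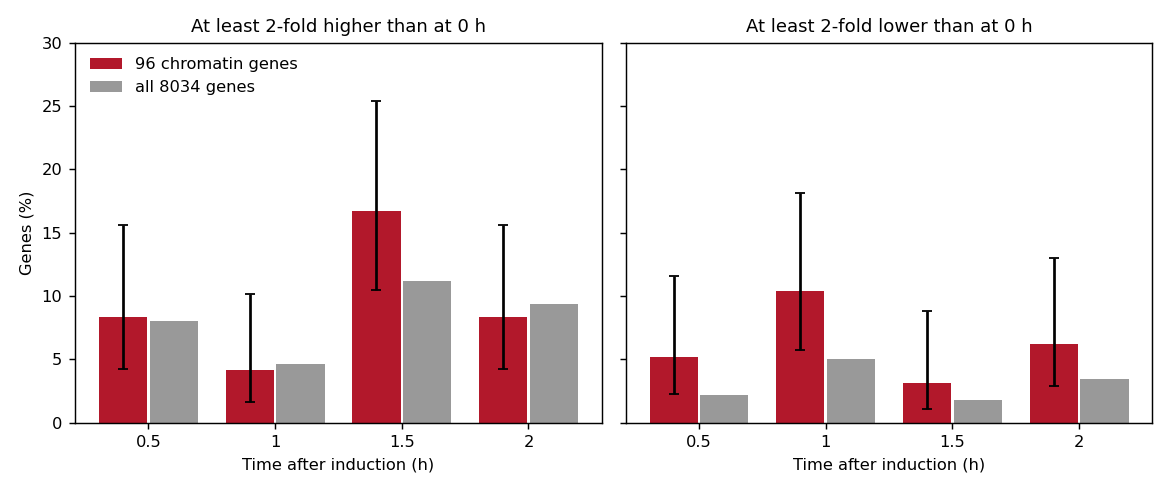
Genes (%) at least 2-fold higher (left) or lower (right) than at 0 h, by time after induction (h); red bars are the 96 chromatin genes with Wilson 95% intervals over genes, and grey bars are all 8034 genes. The tallest red bar on the left is that of 1.5 h, 16.7%, and on the right that of 1 h, 10.4%.

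Of 15 SWI/SNF genes with a site, 15 were covered at both 1.5 and 2 h, against 12 at 0 h, while the shares over all genes were 79.3% and 78.3%, against 72.8%. Smarca4, an ATPase of the complex, held 3, 3, 5, 3 and 4 entries in time order, 46 bp from the start. It was covered in every library and highest at 1 h. Its paralogue Smarca2 held 0, 1, 0, 5 and 2 entries, 2109 bp downstream of the nearest annotated start (chromosome 19, 26607266 to 26607273). It was covered in the 0.5, 1.5 and 2 h libraries, and its log2 ratio to 0 h was 2.58 at 1.5 h and 1.58 at 2 h. All 8 listed sites of Smarca2 were uncovered at 0 h and at 1 h, and 7, 8 and 7 were covered at 0.5, 1.5 and 2 h.

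Brd7, a bromodomain subunit of the PBAF form, held 0, 3, 1, 5 and 3 entries, 77 bp from the start. It was uncovered at 0 h alone, and its sites 20 bp inside and 4 bp upstream of the start held 0 again at 2 h. Smarcd3, a subunit with roles in heart and neurons, held 0, 0, 0, 1 and 3 entries, so that it was covered in the last pair of libraries. Arid2, which marks the PBAF form, held 2 entries at each later time, against 1 at 0 h, at sites 699 to 845 bp upstream. Its sites from 588 bp upstream to 118 bp inside the start held 0 in every library.

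Pbrm1 and Smarce1 were the SWI/SNF genes that were highest at 0 h alone. Pbrm1, the polybromo subunit, held 5, 1, 1, 2 and 2 entries, but its sites 185 and 186 bp inside the gene held 0, 1, 0, 2 and 2, and the site at 81 bp shares its values with Gnl3, whose site lies 152 bp away. Smarce1, which carries an HMG box, held 7, 3, 5, 4 and 4 entries, the highest single value among the members. Phf10, a PBAF subunit, held 3, 1, 1, 3 and 2 at 120 bp inside the gene, but its sites 9 and 11 bp inside held 0, 0, 0, 3 and 2 and were uncovered at 0 h. Smarcc2, which shares its values with a site of Mir8105, held 2 entries until 1.5 h and 3 at 2 h, and Smarcd2 held 2 until 1.5 h and 1 at 2 h. Counted over the 15, 3 held more and 3 fewer entries at 0.5 h than at 0 h, with 3 and 3 at 1 h, 4 and 2 at 1.5 h, and 6 and 4 at 2 h. Over all genes, 28% held more and 15.7% fewer at 0.5 h, 20.4% and 22.2% at 1 h, 31.2% and 17.9% at 1.5 h, and 25.6% and 23% at 2 h. With libraries scaled to equal means these became 3 and 11, 10 and 3, 4 and 11, and 6 and 9, since scaling turns equal small numbers into small differences.

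Among 7 ISWI genes, Rsf1, the histone-binding partner of the ATPase Smarca5, held 0, 6, 3, 3 and 6 entries at its 1 site, 323 bp inside the gene (chromosome 7, 97580192 to 97580194). It was uncovered at 0 h alone, and its log2 ratio of 2.81 at 0.5 and 2 h was the highest of any member. Smarca5 itself held 2, 3, 3, 5 and 4 entries, more at each later time than at 0 h. Baz2a, which silences ribosomal DNA, held 5, 6, 0, 6 and 2 entries 16 bp upstream of its start. Its second site, 4051 bp inside the gene, held 1, 3, 1, 3 and 2, so the 0 at 1 h was at the upstream site alone. Bptf, which reads histone methylation for the NURF complex, held 2, 2, 0, 1 and 0 entries at 507 bp inside the gene and 1 entry in every library at 51 bp. Baz1a, Baz1b and Baz2b were covered in every library, with 1 to 4 entries.

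**Figure D4:**
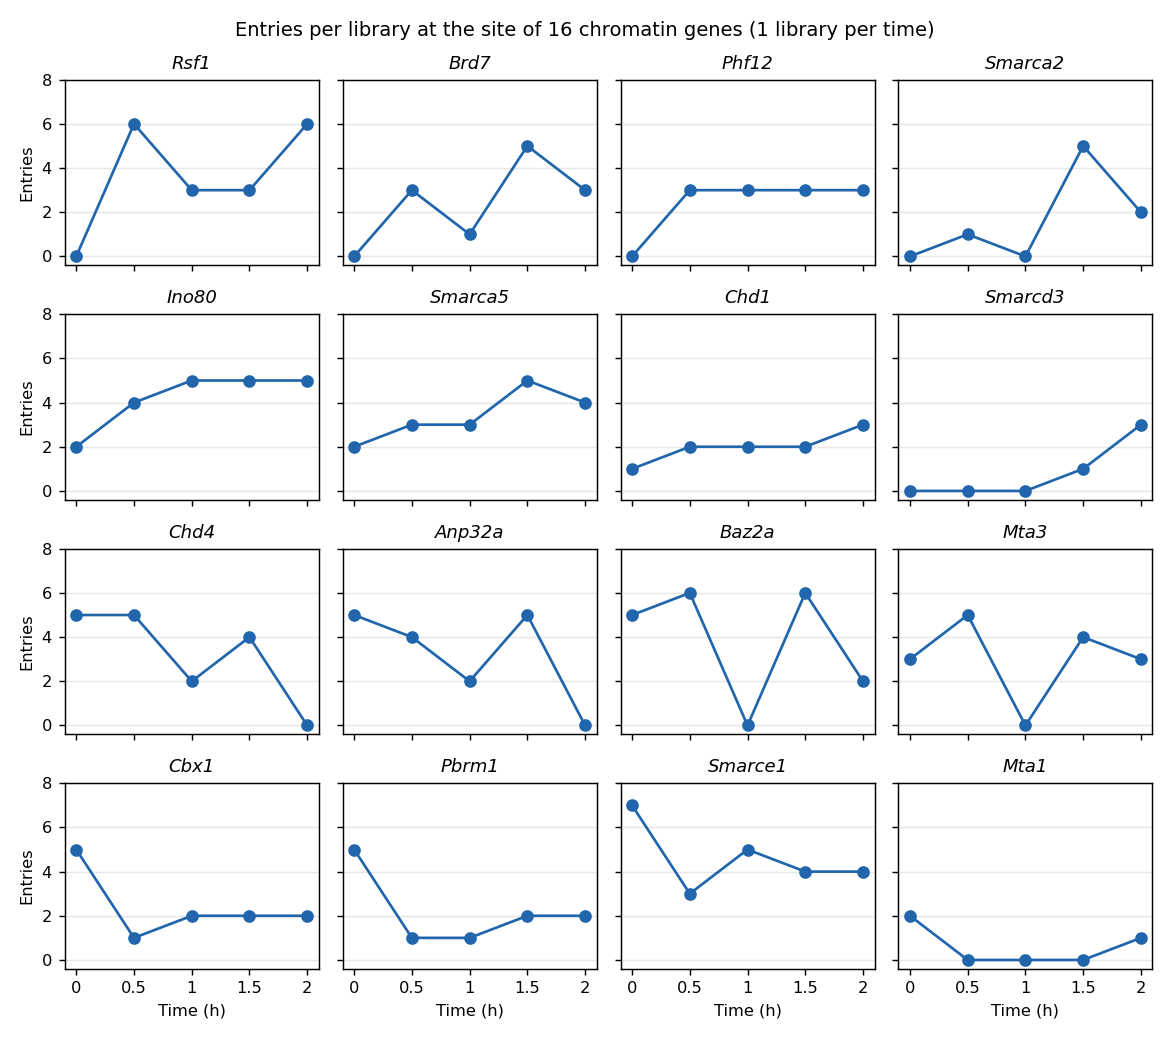
Entries in each library against time after induction (h) at the site of 16 of the genes named in the text, 1 point per library. The upper rows hold genes with more entries at later times than at 0 h, and the lower rows genes with a low library at 1 or 2 h or with their highest value at 0 h.

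The 13 CHD and NuRD genes with a site had 10 covered at 2 h, against 11 at 0 h, where all genes had 78.3%, against 72.8%. Chd4, the main ATPase of the NuRD complex, which couples remodelling to histone deacetylation, held 5, 5, 2, 4 and 0 entries at its 1 site 54 bp upstream of the start. Among the 8 CHD genes it alone was covered at 0 h and uncovered at 2 h. Chd1, which moves nucleosomes behind polymerase, held 1, 2, 2, 2 and 3 entries, more at each later time than at 0 h. Chd9 held 2, 4, 2, 4 and 4, at a site 24110 bp upstream of the nearest RefSeq start. Chd6 held 1, 2, 1, 3 and 1, high in the 0.5 and 1.5 h libraries.

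Chd7, the ATPase mutated in CHARGE syndrome, held 2, 2, 2, 1 and 2 entries, and Chd1l, a remodeller of DNA repair, 4 until 1.5 h and 3 at 2 h. Chd3 and Chd5, the other NuRD ATPases, held 0 at all of their 4 and 10 sites in every library. The 3 metastasis-associated scaffold genes of NuRD went different ways. Mta1 held 2, 0, 0, 0 and 1 entries and was uncovered at 0.5, 1 and 1.5 h, with 3 of its 17 sites covered at 2 h, as many as at 0 h, and the sites nearest the start at 0 throughout. Mta2 held 2, 4, 2, 2 and 2. Mta3 held 3, 5, 0, 4 and 3 and was uncovered at 1 h alone. Mbd3, the methyl-CpG-binding family member of NuRD, held 1, 1, 1, 3 and 2.

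Of the INO80 and other SNF2 genes, Ino80, an ATPase that exchanges histone variants, held 2, 4, 5, 5 and 5 entries at 373 bp inside the gene. It was at least 2-fold higher than at 0 h in the 1, 1.5 and 2 h libraries. Its partner genes held lower values: Ino80b had 1, 3, 1, 1 and 1, and Ino80d 0, 2, 0, 2 and 0, covered at 0.5 and 1.5 h. Atrx, which deposits histone variants in repeats, held 3, 2, 3, 2 and 3. Smarcad1, which keeps heterochromatin through replication, held 4, 3, 3, 2 and 2, fewer at each later time than at 0 h.

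Among the readers, the highest sites of the bromodomain genes Brd1, Brd2 and Brd3 were covered in every library. At those sites none of them reached a 2-fold difference from 0 h. Brd1 held 3, 2, 3, 2 and 3 entries, Brd2 3, 4, 3, 2 and 2, and Brd3 2, 3, 2, 3 and 3. Other sites differed: those of Brd3 within 156 bp of the start held 0, 3, 2, 3 and 3. Those of Brd1 lying 434 to 550 bp inside the gene held 0, 0, 0, 2 and 3. Those of Brd2 from 1 bp upstream to 568 bp inside a start held 2, 2, 3, 3 and 3, more at 1.5 and 2 h than at 0 h. All 4 ING genes, whose products read histone H3 tails, were also covered throughout by their highest site, against 69% of all genes. Ing2 held 3, 4, 3, 6 and 4 entries and Ing3 2, 4, 4, 2 and 2. Ing1 ranged over 2 to 3 and so did Ing5. Of 11 PHD finger genes, 8 were covered in every library, against 69% of all genes. Phf12, a subunit of a SIN3 deacetylase complex, held 3 entries at each later time, against 0 at 0 h, at its sites near the start. Its sites 1722 and 1758 bp inside the gene held 1, 1, 0, 3 and 1, so they were covered at 0 h. Phf3, which binds elongating polymerase, held 2, 5, 4, 4 and 3, and Phf21b held 2, 3, 2, 5 and 4. Phf7, which shares its values with a site of Bap1, held 4, 2, 3, 2 and 2. Phf6, Phf13, Phf14, Phf20l1 and Phf21a stayed within 2 to 4 entries. Mbd6, a methyl-CpG-binding domain protein, held 3 entries at 1.5 h and 0 in each other library. Of the ARID genes outside SWI/SNF, Arid4b held 4, 3, 2, 2 and 3, while Arid3a and Arid5a stayed within 2 to 4.

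Polycomb group genes encode the subunits that keep developmental genes silent. Of 9 with a site, 7, 8, 6, 8 and 8 were covered in time order, beside 72.8%, 76.5%, 72.4%, 79.3% and 78.3% of all genes. The chromodomain gene Cbx7 held 0, 1, 0, 2 and 1 entries, and Cbx2 4, 4, 2, 4 and 2, so that both were tied for their lowest at 1 h. Cbx6 held 3, 4, 3, 2 and 3, equal to Npcd. The PCGF genes, which define the variants of Polycomb repressive complex 1, ranged from 2 to 4 entries at their highest sites. Pcgf5 sites 20 bp upstream and 36 bp inside a start held 1, 1, 1, 4 and 4, and a Pcgf2 site 266 bp inside held 0 throughout. None of the 9 was higher at 1 h than at 0 h, 4 were lower and 5 equal, where 20.4% of all genes were higher and 22.2% lower. When each library was scaled to the same mean over all genes, 3 of the 5 ties became higher by construction. Of the heterochromatin protein 1 genes, Cbx1 held 5, 1, 2, 2 and 2 entries, Cbx3 3, 2, 2, 3 and 3, and Cbx5 5, 5, 5, 5 and 3. Cbx1 was at least 2-fold lower at all 4 later times, whereas the values of Cbx5 are shared with Hnrnpa1 across the promoter.

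Among 10 histone chaperone genes, Anp32a, of the acidic nuclear phosphoprotein family, held 5, 4, 2, 5 and 0 entries at sites 2242 to 2358 bp inside the gene. Its pair of sites at the start, 388 bp upstream and 78 bp inside, held 2 entries in every library, so the low value at 2 h belonged to the internal sites. Anp32e, which removes the variant H2A.Z, held 1 entry at 1.5 h and 0 otherwise. Ssrp1 and Supt16, which form the FACT complex of transcribing polymerase, held 3, 5, 3, 3 and 3 entries and 2, 2, 2, 3 and 2. Chaf1a and Chaf1b, of the replication-linked chaperone CAF-1, held 1, 1, 1, 2 and 1 and 2, 3, 2, 2 and 2. Nap1l1, an importer of H2A and H2B, held 1, 1, 1, 3 and 2, and Nap1l4 held 4, 4, 3, 4 and 3.

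By the highest site, all 8 genes of HMG proteins, which bend DNA or bind nucleosomes, were covered in every library, against 69% of all genes. None reached a 2-fold difference from 0 h at that site, where 22.6% of all genes did. Hmgb2 held 2, 4, 3, 3 and 3 entries, Hmgb3 and Hmgn1 each held 3 at every later time, against 2 at 0 h, and Hmgn2 held 2, 2, 3, 4 and 3. Hmga1 held 1, 1, 1, 2 and 2, and Hmga2, an architectural protein of progenitor cells, 3, 3, 3, 4 and 4. Hmgn3 held 3, 3, 4, 3 and 3. Hmgb1 held 4, 4, 4, 3 and 3 at sites 131137 bp from its nearest RefSeq start. Its sites 23 to 418 bp upstream of a start held 0, 2, 0, 2 and 1, so they were uncovered at 0 and 1 h. Of the 8 genes, 3 were higher and 0 lower at 0.5 h, 5 and 0 at 1 h, and 6 and 1 at both 1.5 and 2 h, where 28%, 20.4%, 31.2% and 25.6% of all genes were higher and 15.7%, 22.2%, 17.9% and 23% lower. The direction at 0.5 h depends on how ties are counted, since scaling libraries to equal means makes the 5 ties lower by construction.

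The 7 members covered in no library were Arid4a, Cbx8, Chd3, Chd5, Phf2, Phf24 and Smarca5-ps. None of their sites was covered, although Phf2, a histone demethylase with a PHD finger, had 24 listed sites. Phf2os1, on the opposite strand of Phf2, held 1 entry at 1.5 h. The GC content of the RefSeq promoters was 66 to 87% (median 78%) for the 4 of these 7 with a promoter, and 34.7 to 87% (median 65.3%) for 57 of the 72 covered throughout. The part of GC content in the values was not tested.

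The list of sites within a gene showed a difference that the single highest site hides. At 0.5 h, 35 of 96 members had more covered sites than at 0 h and 1 had fewer (19.1% and 1.93% of all genes, which have fewer sites each). At 1 h, 21 had more and 7 fewer (12% and 6.56%), at 1.5 h 41 had more and 1 fewer (24.7% and 0.859%), and at 2 h 39 had more and 4 fewer (23.6% and 1.72%). The genes named in this paragraph were chosen after their values were seen. Chd1 had 3, 6, 6, 16 and 15 of 18 sites covered in time order. At 0 h these were 40 bp upstream and 617 and 692 bp inside, whereas at 1.5 and 2 h every site up to 241 bp inside was covered. Smarca5 had 3, 6, 5, 9 and 9 of 9 sites covered in time order, and Chd7 1, 8, 5, 21 and 10 of 46. Pcgf5 had 11, 13, 15, 27 and 26 of 28. Hmgb1 had 2, 14, 3, 14 and 14 of 17, as its 15 sites within 641 bp of the start were uncovered at 0 h. Baz2b had 2, 15, 3, 14 and 14 of 22, and Phf3 5, 17, 14, 17 and 17 of 17. In all of these the 0 h library had the fewest covered sites, and in all except Pcgf5 the 1 h library had fewer than or as many as the 0.5 h library. Sites of a gene share intervals and are not independent of one another.

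**Figure D5:**
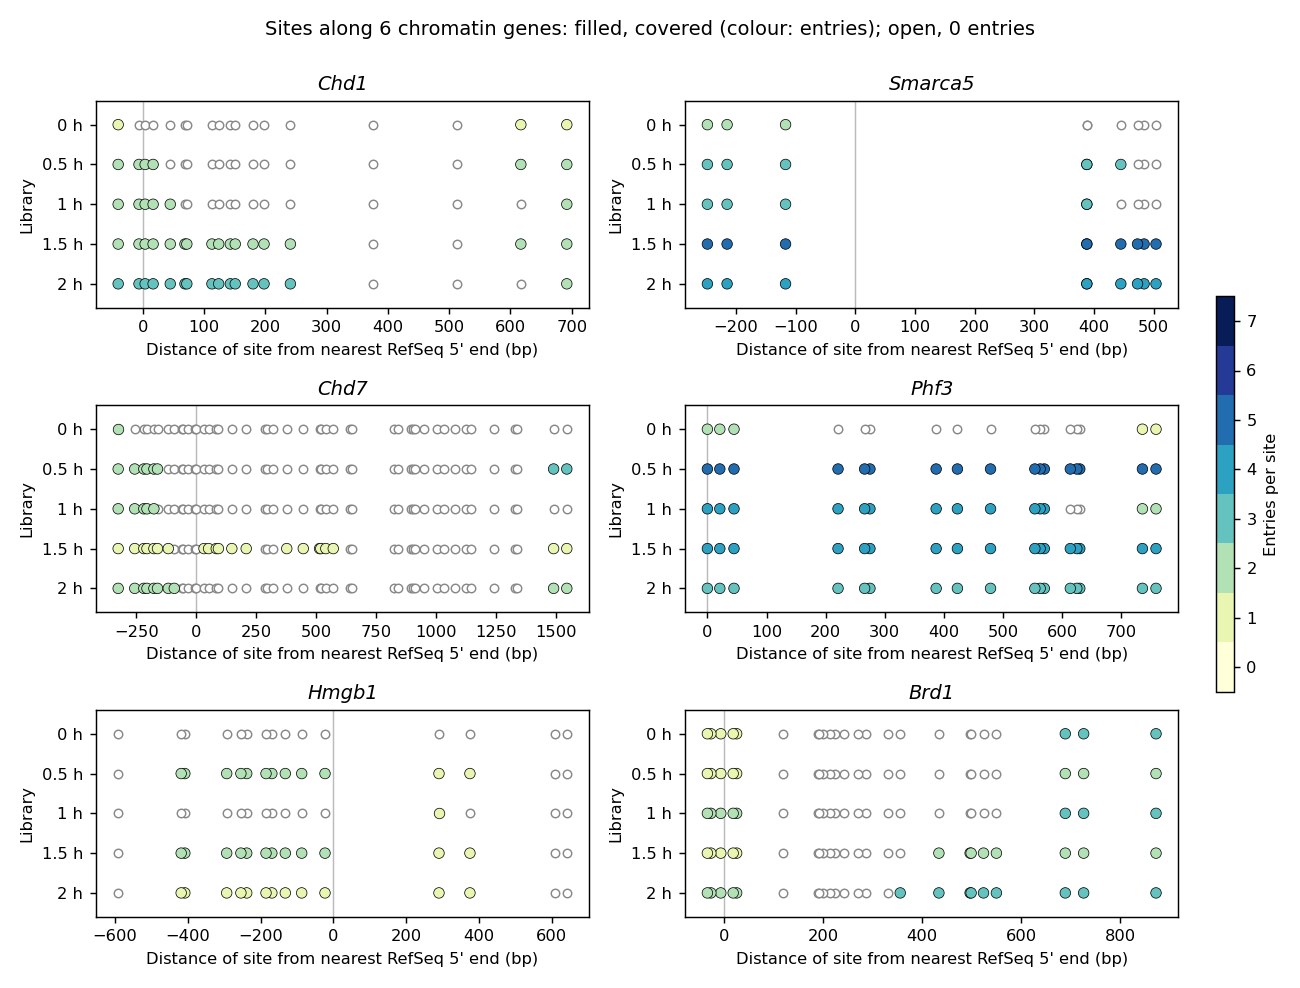
Listed sites along Chd1, Smarca5, Chd7, Phf3, Hmgb1 and Brd1 by distance from the nearest RefSeq 5′ end (bp), within 2000 bp of it, with 1 row per library; filled points are covered, coloured by entries, and open points hold 0. In Chd1 the covered sites reach further into the gene at 1.5 and 2 h than at 0 h.

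By position, the members' sites 500 to 1000 bp inside the gene were covered least: 24.6%, 40.7%, 28.8%, 51.7% and 44.1% of 118 in time order, against 31.7%, 46.4%, 35.6%, 56.1% and 52.5% of all such sites. In the 250 bp upstream of the start the shares were 48.6%, 66.7%, 55.1%, 71.7% and 71.7% of 138 sites, against 62.1%, 69.8%, 64%, 76.9% and 76.6%. Farther upstream, from 250 to 1000 bp, the order was the other way, with 53.3%, 71.1%, 62.2%, 80% and 73.3% of 45 sites, against 47.8%, 59.9%, 52.3%, 69.6% and 67.5%. In the 250 bp inside the start the members lay below all sites at each time, and at 250 to 500 bp they lay below at the first 3 times and at 70% and 68.5% of 130 sites at 1.5 and 2 h, against 69.8% and 67.6%. The site that stood for a gene lay within 1000 bp of an annotated 5′ end in 86 members. In the other 10 (Anp32a, Arid1b, Arid4a, Baz1a, Cbx8, Chd9, Hmgb1, Ino80b, Nap1l4 and Smarca2) it lay farther away, and in Arid1b 194824 bp inside. That site of Arid1b held 3 entries throughout, while one 21 bp upstream of a start held 4, 2, 1, 4 and 1.

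The listed partners of these complexes were read the same way, and 54 of 83 had a site. Relative to 0 h, partners with more and with fewer entries numbered 15 and 11 at 0.5 h, 14 and 14 at 1 h, 18 and 11 at 1.5 h, and 13 and 16 at 2 h, against 28% higher and 15.7% lower over all genes at 0.5 h, 20.4% and 22.2% at 1 h, 31.2% and 17.9% at 1.5 h, and 25.6% and 23% at 2 h. For the 96 members these numbers were 31 and 14 at 0.5 h, 17 and 23 at 1 h, 37 and 18 at 1.5 h, and 29 and 21 at 2 h. By 2 h, 3 of the 54 partners had risen 2-fold or more, where 9.35% of all genes had. A fall of that size was seen in 2 partners, beside 3.47% of all genes. Of the risers, Dpf1, a neuronal SWI/SNF subunit, and Cecr2, an ISWI partner, each held 1 entry at 2 h against 0 at 0 h. These 2 therefore passed the limit on 1 entry. The third riser was Phc2, a Polycomb subunit, with 2 against 0. The partners that fell were Hdac1, the NuRD deacetylase, and Daxx, the chaperone partner of Atrx, each with 1 against 3. Daxx held 3, 4, 3, 5 and 1 entries over the 5 times. The Polycomb partner Rybp held 3, 4, 0, 7 and 4, with its gap at 1 h. Ubn1 and Ubn2, of the HIRA chaperone complex, held 3 in every library.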

How the data were processed

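The deposited table lists start sites with a position, a gene symbol and, per library, a whole number of BED entries, with no unit in the file headers. The submitters' processing notes name Bowtie2, MACS2, deepTools and the build GRCm38 (mm10). Versions, settings, read shifting, duplicate handling and how the sites were chosen: not given in the sources used here. Read depth is unknown, so the precision of a value is unknown. Groups follow the labels' times, with 1 library each, so no replicate error, test or p-value exists. Computed here with Python 3.11.15, pandas 2.3.3, NumPy 2.4.6, SciPy 1.17.1 and matplotlib 3.10.9: the highest-mean site per gene, covered calls (1 or more entries), log2 ratios with a pseudocount of 1, a 2-fold limit, no filter on low values and no scaling. Fold and cluster steps were tested on simulated data. Distances run to the nearest RefSeq start in GRCm38.p6, the same build; sequences are from RefSeq. Genes were named by a rule (the ATPases, the 6 highest and 6 lowest past 2-fold at each time, members covered in no library or uncovered in exactly 1, and partners past 2-fold at 2 h), and the other members are given for completeness. The partners Rybp, Ubn1 and Ubn2 were named outside this rule. The members, lists and rule were chosen with earlier results of these data known. Results for some single genes are not reported here, though the counts include them.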

Additional observations from a re-analysis of the deposited data

How the results depend on the processing

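None of the 2-fold ratios of single members took the opposite sign under the alternatives run. Of 447 alternative values for these ratios, 395 stayed at 2-fold or more and 52 fell below it. Some fell to 0.00, which was not counted as a change of sign, as for Bptf and Mta1 by the site nearest the start. The 27 results on all members are counts, shares and medians of 0.00, so they had no sign to change. The higher and lower counts of families did turn under scaling (SWI/SNF, at 1.5 h, 4 and 11 against 4 and 2). Of 196 alternative values for 27 results, 152 kept within 1.5 times the count or within the interval of the main value. The other 44 are listed below, and their cause was not tested beyond what each alternative does by construction. Shares over all genes were computed for the 2-fold counts by the nearest site, by the mean over all sites and with scaling. For the other counts and shares below they were not computed under the same alternative. Those values describe the members alone and give no comparison with all genes. With the site nearest the 5′ end, the covered share was 68.8% at 0 h and 84.4% at 1.5 h; members at least 2-fold higher numbered 14 at 0.5 h, 8 at 1 h and 14 at 2 h, and lower 3 at 0.5 h; 12, 7 and 13 were gained (0 entries at 0 h, 1 or more later) at 0.5, 1 and 2 h, against 6, 3 and 6 by the highest site; 0, 3, 0 and 1 were lost at 0.5, 1, 1.5 and 2 h, against 1, 5, 1 and 3; and 15 were covered in no library. With the mean over all sites, lower members numbered 2, 5, 1 and 3 at the 4 later times, higher ones 14 at 2 h, lost ones 3 at 1 h and 1 at 2 h, and the median log2 ratio was 0.23 at 1.5 h. With 2 entries needed, covered shares were 70.8%, 75%, 66.7%, 82.3% and 76%, lost members 4, 8, 3 and 5, gained members 10 at 2 h, and 12 were covered in no library. Among the 61 members at or above the median gene's mean, higher ones numbered 4 at 0.5 h, 6 at 1.5 h and 4 at 2 h, and lower ones 3 at 0.5 h and 6 at 1 h. With libraries scaled to equal means, higher members numbered 4 at 0.5 h (4.17%, against 4.34% of all genes) and 7 at 1.5 h (7.29%, against 6.65%). The medians were then -0.09, 0.02, -0.12 and -0.05, and the median of all genes moved by at most 0.04. A pseudocount of 0.5, 1 member per cluster, and 2 alternatives added after seeing the data (without Phf2os1 and Smarca5-ps, and without sites over 1000 bp from a start) moved no count or share past these limits, nor did leaving out any 1 library for the members covered in all or none. No paired analysis was possible because each time has 1 library. Read depth, unknown here, limits every value.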
